A study of Mus musculus with 4 samples.

Results

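Dense clusters of distal open regions were stretches of the mouse genome in which at least 4 open regions away from transcript starts followed one another closely, the limit for a gap lying between 12499 bp, the longest that was joined anywhere, and 12533 bp, the shortest that was not. They were chosen by the peak positions themselves: overlapping peaks of 4 ATAC-seq libraries were merged into 52714 regions, and an autosomal region was kept as distal when it was found in at least 2 libraries, was less than 50% soft-masked repeat and had no GENCODE vM21 transcript start within 1 kb. This left 15080 distal regions, of which 75 regions in 17 clusters met the rule, or 0.497% (95% Wilson interval 0.397 to 0.623%, counting error only). The libraries came from E14 mouse embryonic stem cells (ESCs) in serum with LIF, the cytokine that keeps these cells undifferentiated. Cells were infected with a pLKO lentivirus carrying a short hairpin RNA against GFP (shGFP, 1 library) or luciferase (shLuc, 3 libraries). Puromycin (2 μg/ml) killed uninfected cells over 2 days, and about 50000 cells per library were taken after 2 further days. Neither GFP nor luciferase is a mouse gene, so both groups are hairpin controls, which differed in the hairpin's target and shared the viral vector and the selection. The labels do not say whether the shLuc replicates came from separate cultures.

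ATAC-seq marks DNA that a transposase can reach. Away from promoters, such open DNA is often an enhancer, a stretch bound by transcription factors that raises the transcription of a gene at a distance. Enhancers that lie close together along the chromosome are commonly stitched into one unit, and the most strongly bound of these units in ESCs, called super-enhancers, lie at genes of pluripotency factors such as Pou5f1, Sox2 and Nanog. Super-enhancers are defined by the amount of a bound factor or histone mark, which a list of peak positions does not hold, so the clusters described here were candidates by spacing only.

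The peak lists held 41943 peaks for shGFP and 17860, 41401 and 31585 peaks for shLuc replicates 1, 2 and 3. Read depth is unknown from these lists, and peaks carried no height or score, so presence and width in bp were the only values per library. As a check of the cell type, 6 of 12 ESC marker genes had a peak within 1 kb of a transcript start in at least 1 library, Zfp42 and Tfcp2l1 in all 4 and Pou5f1, Sox2, Nanog, Sall4, Dppa3 and Dppa4 in none. Of 12 fibroblast markers, a cell type used as feeder layer for ESCs, 8 had a promoter peak in at least 1 library, among them Col1a1, Thy1 and Twist1 in all 4. Per library the ESC markers with a peak numbered 2 to 5 and the fibroblast markers 3 to 7. The share of all coding genes with such a peak was not computed, so these counts do not tell the 2 cell types apart. An open promoter is not a measure of expression, and the part of either marker list in the results below was not tested.

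The sequences that set groups of clusters apart are shown first, all on GRCm38, the assembly with mm10 coordinates. The largest cluster, on the side of Pdia4, is shown by the central 300 bp of its widest region found in all 4 libraries (chr6:47753380-47753679) and by the first 120 bases of a 579-bp run that was identical in its regions 3 and 5, 10432 bp apart (chr6:47752674-47752793 for the copy shown). The region held none of the 13 motifs searched and the run was not searched, so neither has capitals.
Pdia4 side, region 3: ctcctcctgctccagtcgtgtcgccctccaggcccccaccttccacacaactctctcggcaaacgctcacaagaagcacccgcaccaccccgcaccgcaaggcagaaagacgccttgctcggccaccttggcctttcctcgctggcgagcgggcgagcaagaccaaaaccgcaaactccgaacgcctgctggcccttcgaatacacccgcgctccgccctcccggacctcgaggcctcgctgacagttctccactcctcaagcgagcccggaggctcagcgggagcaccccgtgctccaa
Run shared by regions 3 and 5: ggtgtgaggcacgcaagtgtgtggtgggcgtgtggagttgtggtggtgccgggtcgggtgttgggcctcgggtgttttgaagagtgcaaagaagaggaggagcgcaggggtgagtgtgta

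The cluster on the side of Trim27 is shown by the 4 tRNA genes that RefSeq places in its 4 regions, because these genes were what the regions had in common. Capitals mark the tRNA gene and lower case the 15 bases on either side. The positions are chr13:21215443-21215545 (minus strand), chr13:21222571-21222672, chr13:21234030-21234131 and chr13:21240930-21241031 (plus strand).
Arginine tRNA gene n-TRccg3, region 1: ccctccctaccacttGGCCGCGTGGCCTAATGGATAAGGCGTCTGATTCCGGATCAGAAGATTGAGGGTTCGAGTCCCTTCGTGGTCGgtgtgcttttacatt
Alanine tRNA gene n-TAagc16, region 2: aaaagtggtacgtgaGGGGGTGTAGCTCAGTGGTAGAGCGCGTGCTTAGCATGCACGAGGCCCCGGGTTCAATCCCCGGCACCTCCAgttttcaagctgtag
Alanine tRNA gene n-TAagc17, region 3: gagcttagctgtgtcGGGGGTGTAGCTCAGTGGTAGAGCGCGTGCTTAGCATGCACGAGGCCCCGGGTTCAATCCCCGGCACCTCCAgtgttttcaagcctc
Alanine tRNA gene n-TAtgc11, region 4: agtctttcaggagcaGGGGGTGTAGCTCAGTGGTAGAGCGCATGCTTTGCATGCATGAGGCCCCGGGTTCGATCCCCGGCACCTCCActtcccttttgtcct

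The next set holds the regions of other clusters that were found in all 4 libraries, which are the members with the fewest missing values. They are region 3 of the cluster beside Rpn1 (chr6:88123947-88124246), region 1 of the cluster nearest Adgrd1 (chr5:129270187-129270486) and region 2 of the cluster nearest Fam43a (chr16:30641486-30641785). Capitals mark a match to a motif, which occurred only in the first of these, as GGGTGTGG, an element bound by KLF factors.
Rpn1 side, region 3: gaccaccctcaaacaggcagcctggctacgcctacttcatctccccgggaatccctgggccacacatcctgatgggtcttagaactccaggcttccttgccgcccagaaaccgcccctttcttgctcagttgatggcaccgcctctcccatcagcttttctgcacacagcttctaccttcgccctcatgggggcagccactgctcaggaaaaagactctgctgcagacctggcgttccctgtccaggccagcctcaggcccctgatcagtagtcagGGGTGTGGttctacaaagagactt
Adgrd1 side, region 1: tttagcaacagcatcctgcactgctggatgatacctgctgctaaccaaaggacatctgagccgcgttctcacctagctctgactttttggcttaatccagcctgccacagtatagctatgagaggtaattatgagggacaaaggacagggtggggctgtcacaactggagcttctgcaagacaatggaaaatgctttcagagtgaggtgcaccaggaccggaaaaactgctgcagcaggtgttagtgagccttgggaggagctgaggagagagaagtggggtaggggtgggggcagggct
Fam43a side, region 2: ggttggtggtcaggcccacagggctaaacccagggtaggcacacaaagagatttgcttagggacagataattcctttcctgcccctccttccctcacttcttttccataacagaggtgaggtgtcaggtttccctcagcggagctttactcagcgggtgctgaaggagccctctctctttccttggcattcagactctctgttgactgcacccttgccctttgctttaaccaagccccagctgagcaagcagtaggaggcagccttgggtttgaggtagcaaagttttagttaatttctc

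The last set holds the regions with matches to 3 of the 13 motifs, which were region 2 of the cluster at Tmem220 and Adprm (chr11:67017929-67018228) and region 2 of the cluster inside Nr1h4 (chr10:89470836-89471135), and the widest region of the cluster between Serpina3n and Gsc (chr12:104440369-104440668), which had no match. In the first, capitals mark a SOX site (CATTGTT), the KLF element and a POU octamer read on the other strand (ATTTGCAT). In the second, capitals mark an AP-1 element (TGATTCA) and a SOX-POU junction (TGTTATGCA) that overlaps a POU octamer (ATGCAAAT).
Tmem220 and Adprm, region 2: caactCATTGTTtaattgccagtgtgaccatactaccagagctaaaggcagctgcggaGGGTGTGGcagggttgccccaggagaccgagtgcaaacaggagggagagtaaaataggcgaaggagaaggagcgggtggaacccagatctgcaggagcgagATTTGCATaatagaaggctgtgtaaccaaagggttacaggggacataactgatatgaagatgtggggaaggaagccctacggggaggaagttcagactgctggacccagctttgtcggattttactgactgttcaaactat
Nr1h4, region 2: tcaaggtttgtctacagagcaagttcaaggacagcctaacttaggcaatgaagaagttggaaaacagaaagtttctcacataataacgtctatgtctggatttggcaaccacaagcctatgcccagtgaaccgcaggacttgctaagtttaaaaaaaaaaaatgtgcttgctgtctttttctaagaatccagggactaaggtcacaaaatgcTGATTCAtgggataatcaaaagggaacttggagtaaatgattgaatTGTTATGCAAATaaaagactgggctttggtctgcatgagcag
Serpina3n to Gsc, region 4: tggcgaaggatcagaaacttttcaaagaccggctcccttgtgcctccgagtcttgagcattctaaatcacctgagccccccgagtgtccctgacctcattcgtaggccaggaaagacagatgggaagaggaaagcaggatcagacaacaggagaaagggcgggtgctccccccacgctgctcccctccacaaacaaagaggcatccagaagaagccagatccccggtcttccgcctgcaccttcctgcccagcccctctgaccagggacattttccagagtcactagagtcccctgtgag

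The rule set a sharp edge on a falling distribution of cluster sizes. Stitching left 12263 distal regions alone, 1155 pairs, 144 clusters of 3 regions, 13 of 4, 2 of 5, 1 of 6 and 1 of 7. Neighbouring distal regions on a chromosome lay a median of 75.2 kb apart. The 58 gaps inside dense clusters had a median of 7344 bp and ran from 406 to 12466 bp. Gaps inside clusters were short by construction, because the rule joined regions only across gaps up to its limit. The nearest further region beside any cluster of 3 was 12801 bp away, a distance that the rule likewise forces above the limit. Dense clusters spanned 19.6 to 38.9 kb, and their regions covered 6.22 to 19.2% of the span. In 15 of 17 clusters the span held no merged region other than the members, and in 1 it held a promoter region.

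**Figure D1:**
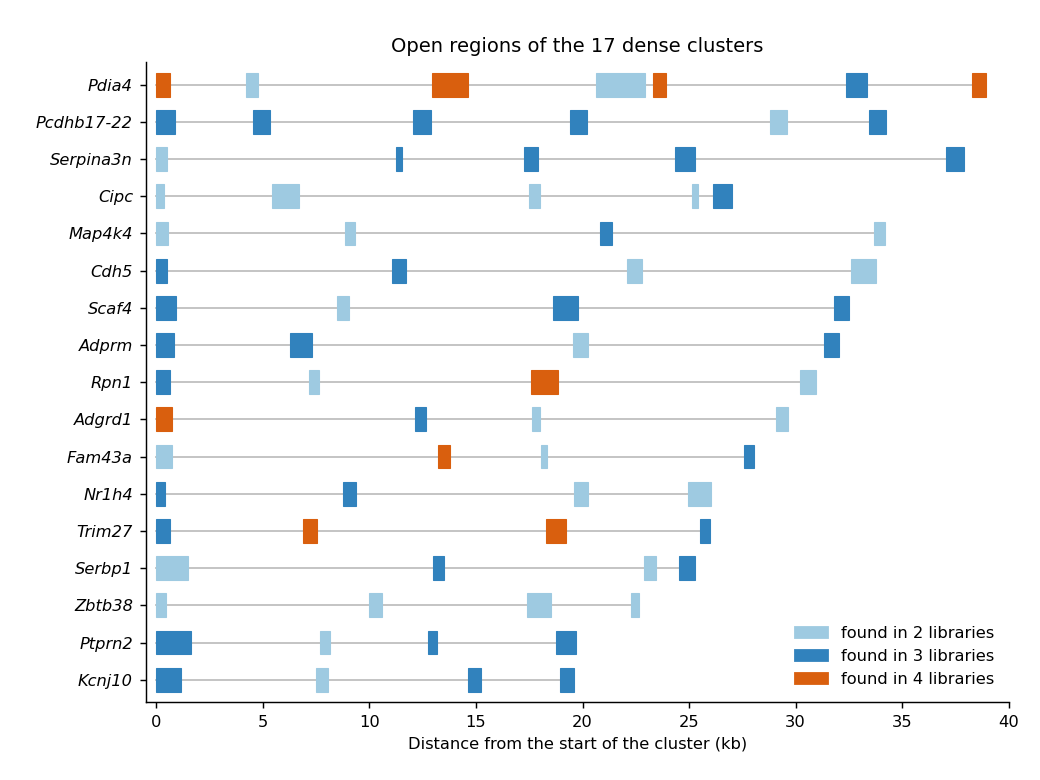
Each row is 1 dense cluster, named by its host or nearest coding gene, drawn to scale as distance in kb from its first region; boxes are the 75 regions, coloured by the number of libraries (of 4) that held them. Regions found in all 4 libraries occurred in 5 clusters, with 4 of the 9 in the cluster nearest Pdia4.

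The clusters lay on 11 of 19 autosomes, with 3 each on chromosomes 6 and 12, and 2 each on chromosomes 1 and 16. Chromosome 2, which had the most distal regions (1234), held none, while chromosome 12 with 650 distal regions held 3. Distances to a gene run to its nearest annotated transcript start, which can lie inside the gene. A host or nearest gene is a label of position, and no target of any cluster was measured. The coding gene that named a cluster held at least 1 of its region centres in 6 clusters and was the nearest by start site in the other 11.

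The largest cluster lay in sequence that is repeated locally. It spanned chr6:47739756-47778684 with 7 regions, outside coding genes, 34.7 kb from the nearest start of Pdia4, which encodes a protein disulfide isomerase of the endoplasmic reticulum. The Krüppel-type zinc finger genes Zfp786 and Zfp398 started 51.8 and 57.0 kb away. Regions 1 to 6 had 83.0, 90.8, 97.4, 95.8, 100 and 96.4% of their 50-base words repeated in the genome on either strand, and region 7 had 26.7%. Nearly all of these repeated words had another copy within the cluster or 100 kb on either side. Copies further away are not given. Within the cluster and 100 kb on either side, the median word of regions 1 to 6 occurred 13 to 16 times, and that of region 7 occurred once. The 7 regions were 16.4 to 36.9% soft-masked, under the limit of 50%, so they passed the rule on repeats. How far the mask covers the repeated words was not measured.

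This cluster also held 4 of the 9 members that were found in every library. Region 3, of which a part is shown above, had 1701 bp of peak in shGFP and 1525, 1627 and 1712 bp in shLuc replicates 1, 2 and 3, so it was wide in all 4. Region 4 had 1969 bp in shGFP and 2277 bp in shLuc replicate 1 but no peak in shLuc replicates 2 and 3. Region 2, with 90.8% of its words found again in other regions of the cluster, had 593 bp in shGFP and 564 bp in shLuc replicate 2 and was missing from the other two. Region 5, with 95.5% of its words found again there, was present in all 4 at 585, 503, 577 and 499 bp. Regions with largely shared words were thus listed in different sets of libraries, while region 4 shared no word with another region of the cluster. Per the study's methods, a read that fits several positions equally well was placed at one of them at random, so the copy on which a peak stands is uncertain; the part of this placement in the cluster was not tested. Of the 11 members found in shLuc replicate 1, the shortest list, 5 lay in this cluster.

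The second cluster followed the protocadherin beta genes. Protocadherins are cell-surface adhesion proteins that give neurons individual identities, and each beta gene is essentially a single large coding exon in a row of similar genes. The cluster spanned chr18:37486508-37520723, and each of its 6 regions was centred in an exon of 1 gene, Pcdhb17, Pcdhb18, Pcdhb19, Pcdhb20, Pcdhb21 and Pcdhb22 in order. Longer gene models such as Gm42416 also span all 6. The region centres lay 1.99 to 2.46 kb after the annotated gene starts. The same position recurred along the row: 20 of 22 Pcdhb genes held a merged region, and in 19 of them the centre lay 1.9 to 2.5 kb after the gene start, Pcdhb1 being the exception at 0.103 kb. Not all of these passed the rule, which kept 15 of the 21 merged regions over the row. The regions in Pcdhb2, Pcdhb9 and Pcdhb15 were found in 1 library, and those in Pcdhb1 and Pcdhb12 were promoter regions. Pcdhb11 held 2 regions, and the distance is given for 1 of them.

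**Figure D2:**
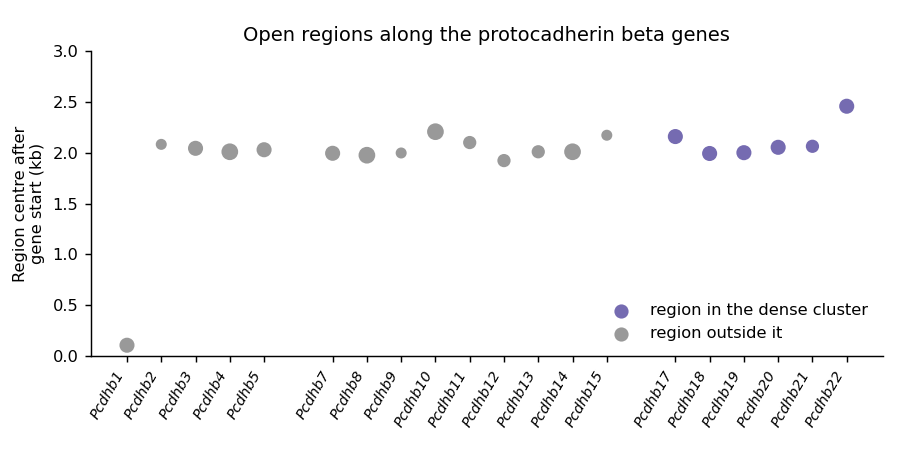
Distance in kb from each annotated gene start to the centre of its open region, for the 20 protocadherin beta genes with a merged region, whether or not the rule kept it. Purple points belong to the dense cluster, grey points do not, and larger points were found in more libraries. Apart from Pcdhb1 at 0.103 kb, all points sit between 1.9 and 2.5 kb.

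The protocadherin regions were GC-rich, 61.3 to 65.0% in the central 300 bp, against a median of 57.0% over 879 other distal regions centred in exons of coding genes. Between 13.04 and 26.2% of their 50-base words were repeated, and the longest run shared by a pair of them was 116 bp. Region 1, in Pcdhb17, had 885 bp of peak in shGFP, none in shLuc replicate 1, and 801 and 813 bp in shLuc replicates 2 and 3. Region 5, in Pcdhb21, had 788 bp in shGFP and 331 bp in shLuc replicate 2 and none in the other two. The regions in Pcdhb17 to Pcdhb20 and in Pcdhb22 were each found in 3 libraries, and no region of the cluster in shLuc replicate 1. Elsewhere in the row the kept regions stitched into groups of 2 and 3 only.

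The cluster between Trim27 and the Gpx5 and Gpx6 genes was a row of tRNA genes. Transfer RNA genes are transcribed by RNA polymerase III from promoters inside the gene, and GENCODE vM21 holds no nuclear tRNA genes, so the distance rule did not remove them. All 4 regions of chr13:21215363-21241353 overlapped a RefSeq tRNA gene. Regions 2 and 3 hold identical alanine tRNA genes, and the 74-bp run they share is that gene with 2 further bases. Region 3 had 941 bp of peak in shGFP and 643, 848 and 778 bp in shLuc replicates 1, 2 and 3. Region 2 had 605, 346, 622 and 643 bp in the same order, so both were present in all 4. Regions 1 and 4 were found in 3 libraries and were missing from shLuc replicate 1.

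No other dense cluster overlapped a tRNA gene. Outside dense clusters, 56 distal regions (0.373%) did. Of these 56, 29 (51.8%) were found in all 4 libraries, against 15.3% of all distal regions kept. The nearest annotated transcript start of Trim27, which encodes a RING-type ubiquitin ligase, lay inside that gene, 25.5 kb from the cluster. The tRNA genes were looked up after the values had been seen.

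**Figure D3:**
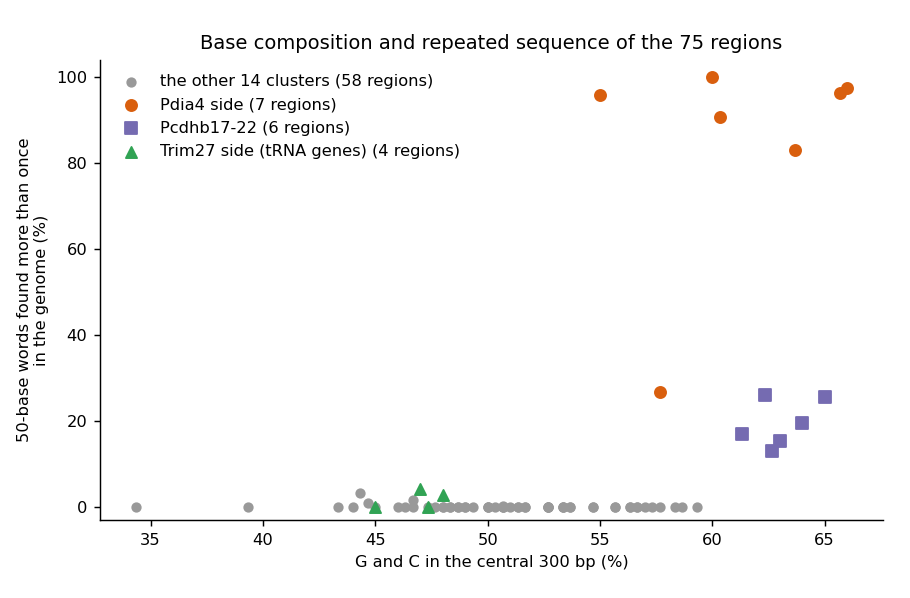
Each point is 1 of the 75 regions; the horizontal axis is the percent of G and C in its central 300 bp and the vertical axis the percent of its 50-base words that were repeated elsewhere on the chromosomes. The cluster nearest Pdia4 and the protocadherin exons stand apart from the other 15 clusters, in which repeated words stayed under 5%.

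The remaining 14 clusters lay on sequence that is almost wholly unique. Only region 4 at Map4k4, regions 1 and 2 at Scaf4 and region 1 at Adprm held any repeated word, at most 3.40%. They fell into a group outside coding genes and a group inside them. Among those outside, the cluster between Serpina3n and Gsc had the largest span, 37.9 kb with 5 regions (chr12:104415703-104453599). Serpina3n encodes a secreted serine protease inhibitor and started 8.97 kb before the first region. Gsc encodes goosecoid, a homeobox factor of the gastrula organizer, and started 19.7 kb after the last. Region 4, the widest, had 935 bp of peak in shGFP and 567 and 391 bp in shLuc replicates 2 and 3, and none in shLuc replicate 1. Region 1 was the only one missing from shGFP, with 375 and 506 bp in shLuc replicates 2 and 3. When RefSeq transcript starts were also kept clear, Gsc no longer had a dense cluster.

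The other cluster of 5 lay on the same chromosome between Irf2bpl and Cipc (chr12:86906292-86933310), 21.5 and 13.7 kb from their starts. Cipc encodes a partner of the circadian factor CLOCK. Only its region 5 was found in 3 libraries, with 838 bp in shGFP and 890 and 763 bp in shLuc replicates 2 and 3. The other 4 regions were found in shGFP and in 1 of these shLuc libraries each, regions 2 and 3 in replicate 2 and regions 1 and 4 in replicate 3. No region of either 5-region cluster was in shLuc replicate 1.

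The cluster beside Rpn1 filled chr6:88105897-88136846. It lay just past the end of Rpn1, 4.33 kb from the nearest transcript start inside that gene, which encodes a subunit of the oligosaccharyltransferase that glycosylates proteins, and ended 57.0 kb from the start of Gata2, a zinc finger factor of blood stem cells and of the placenta. Region 3, shown above, had 1205 bp of peak in shGFP and 539, 770 and 759 bp in shLuc replicates 1, 2 and 3. Region 1 held the NRF1 element GCGCATGCG and 20 CpG dinucleotides in its central 300 bp, against a median of 4 over the other distal regions. Region 1 had 593 bp in shGFP and 455 and 499 bp in shLuc replicates 2 and 3. Regions 2 and 4 were found in shGFP and shLuc replicate 2 only.

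A further pair of clusters lay far from or on one side of their nearest genes and each had 1 region in all 4 libraries. The cluster nearest Adgrd1, which encodes an adhesion G-protein-coupled receptor, lay 173 kb from its start and 202 kb from that of Sfswap (chr5:129269960-129299598). Its region 1 had 475 bp of peak in shGFP and 463, 754 and 578 bp in shLuc replicates 1, 2 and 3. The cluster nearest Fam43a lay 28.4 kb from its start (chr16:30628136-30656172), with region 2 at 545, 363, 497 and 430 bp in the same order. The 3 other regions of each cluster were absent from shLuc replicate 1.

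The cluster nearest Cdh5, which encodes the cadherin of endothelial cells, lay 39.2 kb from its start (chr8:104028636-104062392). Its region 1, with 18 CpG dinucleotides, had 392 bp of peak in shGFP, 269 and 464 bp in shLuc replicates 1 and 2, and none in replicate 3. Regions 3 and 4 showed another pattern, with peaks in shGFP and shLuc replicate 3 only.

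The cluster beside Scaf4 lay 6.54 kb from its start and 62.5 kb from that of the kinase gene Hunk (chr16:90291042-90323560). Its region 3 had 817 bp in shGFP and 898 and 1065 bp in shLuc replicates 2 and 3. Regions 1, 3 and 4 were found in these 3 libraries.

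The cluster nearest Serbp1, an mRNA-binding protein gene, lay 67.3 kb from that gene and 108 kb from Gadd45a, a growth arrest gene (chr6:67145577-67170838). Its widest region, region 1, had no peak in shGFP and 1108 and 1450 bp in shLuc replicates 2 and 3. Region 2 was found in 3 libraries, at 251 bp in shGFP and 283 and 537 bp in shLuc replicates 2 and 3.

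The cluster nearest Zbtb38, which encodes a zinc finger protein that binds methylated DNA, lay 20.4 kb from its start (chr9:96773190-96795859). All 4 of its regions were found in just 2 libraries, which was the weakest support of the 17 clusters. Its region 3 had 970 bp in shGFP and 906 bp in shLuc replicate 3, whereas region 4 was missing from shGFP.

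In 5 clusters at least 1 region lay inside a coding gene of ordinary structure. In Map4k4, a stress-pathway kinase gene, all 4 regions lay in introns (chr1:39902645-39936825), the first 1.70 kb from a start. They were present in shGFP and shLuc replicate 2, and only region 3 was also in replicate 3, at 550, 571 and 448 bp. In Ptprn2, a gene of secretory vesicle membranes, all 4 lay in introns, the nearest 156 kb from a coding start (chr12:116640876-116660581). Its region 1 was wide in 3 libraries, with 1263 bp in shGFP and 1391 and 1620 bp in shLuc replicates 2 and 3.

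In Nr1h4, the bile acid receptor gene FXR, all 4 regions were intronic (chr10:89461910-89487935). This cluster had 3 of the 4 clustered regions with a POU octamer, in its regions 2, 3 and 4, and the lowest GC of any member, 34.3% in region 4. Region 2, shown above, had 612 bp of peak in shGFP and 619 and 491 bp in shLuc replicates 2 and 3. Region 3 was missing from shGFP and had 674 and 330 bp in those shLuc libraries, and region 4 was missing from shLuc replicate 2. None of the 4 was in shLuc replicate 1.

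In Kcnj10, which encodes a potassium channel of glial cells, 3 regions lay in introns and 1 in an exon (chr1:172349949-172369537). Its region 1 had 1127 bp in shGFP and 1011 and 951 bp in shLuc replicates 2 and 3. The cluster at Tmem220 and Adprm (chr11:67011280-67043296) had 1 region in an exon of each gene and the only span with a promoter region. Its region 2, shown above with its SOX, KLF and POU matches, had 899 bp in shGFP and 1003 and 741 bp in the same shLuc libraries.

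Presence in the libraries was set in part by the rule, which asked for 2, and is given as a description. Of the 75 members, 70 were found in shGFP, 11 in shLuc replicate 1, 66 in shLuc replicate 2 and 56 in shLuc replicate 3. The order followed the lengths of the 4 lists. As shares these were 93.3, 14.7, 88.0 and 74.7%, and for the other distal regions they were 91.9, 22.4, 90.9 and 69.5%. The most common pattern was presence in all but shLuc replicate 1, in 34 members (45.3%) and in 39.98% of the other distal regions. Members found in all 4 libraries numbered 9 of 75, or 12% (Wilson interval 6.44 to 21.3%), against 15.3% of all distal regions kept and 53.5% of promoter regions. The share in clusters was thus near the background. It was 5 of 62 without the 2 largest clusters. No member was in all 3 shLuc libraries and absent from shGFP, a pattern of 0.444% of distal regions.

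Each library was then held out, clusters were rebuilt from the other 3, and their regions were looked up in the held-out list, which took no part in choosing them. Regions of dense clusters were found at 94.4% in shGFP (17 of 18 regions) against 87.9% of other distal regions. The shares were 13.5% (10 of 74) against 20.03% in shLuc replicate 1. They were 84.6% (22 of 26) against 86.5% in shLuc replicate 2, and 71.4% (35 of 49) against 64.9% in shLuc replicate 3. Clustered regions were found more often in 2 libraries and less often in 2, with a mean difference of 1.16 ± 6.50 percentage points (SD, n = 4 libraries). The difference was smaller than its spread between libraries. With 4 libraries an exact two-sided sign-flip permutation test cannot go below p = 0.125, so none was run.

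**Figure D4:**
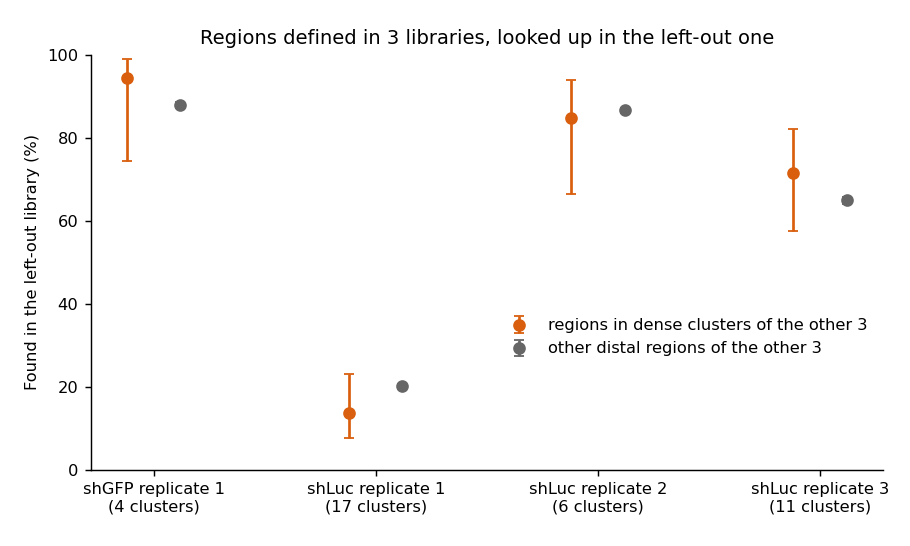
Percent of regions, defined from 3 libraries, that overlapped a peak of the held-out library named on the horizontal axis, for regions in dense clusters (orange) and other distal regions (grey); bars are 95% Wilson intervals, which cover counting error only. The paired points lie on both sides of each other, from 94.4 against 87.9% in shGFP to 13.5 against 20.03% in shLuc replicate 1.

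The number of clusters depended on which libraries were used. Built from 1 library at a time, the same rule gave 45 dense clusters in shGFP, and 2, 41 and 12 in shLuc replicates 1, 2 and 3, a mean of 18.3 ± 20.3 (SD, n = 3). The shGFP value lay above all 3 shLuc values, close to that of replicate 2, and the numbers followed list length; 1 library against 3 cannot go below p = 0.25 in an exact permutation test, so none was run. Of the 17 clusters, 12 were overlapped by a cluster built from shGFP alone, and 0, 10 and 7 by those built from shLuc replicates 1, 2 and 3. From any 3 libraries, the rule gave 4 clusters without shGFP, 17 without shLuc replicate 1, 6 without shLuc replicate 2 and 11 without shLuc replicate 3. When every list was shortened to its 17860 widest peaks, no dense cluster was left in the merged set. Single libraries then gave 1 cluster in shGFP and 2, 0 and 0 in shLuc replicates 1, 2 and 3, so shGFP was no longer above all 3. Promoter regions were wider than distal regions, with medians of 979 and 643 bp, so this cut by width favours promoter peaks. It therefore did not change list length alone, and the part of list length was not tested.

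In composition the clustered regions were close to other distal regions apart from the 2 largest clusters. The median GC of the central 300 bp was 51.7% in clusters and 49.7% in other distal regions, and 63.7% in promoter regions. All 10 members above 60% GC lay in the 2 largest clusters, and without those the median was 50.7%. Median widths were 653 and 643 bp. The mean share of soft-masked bases was 12.6% in clusters and 13.9% elsewhere, within a range limited by the rule. The nearest coding start lay a median of 27.5 kb away, against 23.3 kb.

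The position of clustered regions relative to genes was compared as a description. Centres fell in introns of coding genes for 15 of 75 members (Wilson interval 12.51 to 30.4%), against 39.8% of other distal regions. They fell in exons of coding genes, untranslated parts included, for 12% against 5.86%, and outside coding genes for 68.0% against 54.4%. Of the 9 exonic members, 6 were the protocadherin regions. Without the 2 largest clusters the intron share still differed by -15.6 percentage points, but asking for 3 regions instead of 4 brought the difference to -4.92 points. These regions come from only 17 loci, so the intervals, which treat regions as independent, are too narrow. RefSeq long noncoding RNA genes overlapped 12 members (16%) and 12.503% of other distal regions.

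Motifs were searched on both strands of the central 300 bp of each region, and at least 1 of the 13 was found in 31 of 75 members (41.3%) and in 45.2% of other distal regions. The POU octamer ATGCAAAT, the site of Oct4 and related factors, was in 4 members (5.33%), 4.15% of other distal regions and 1.26% of promoter regions. The composite SOX-POU junction TGTNATGCA was in 2 (2.67%) and 1.59%. The SOX site CATTGTT was in 4 (5.33%) and 6.02%, the ESRRB element CAAGGTCA in 1 (1.33%) and 2.64%, and the KLF element GGGTGTGG in 3 (4.00%) and 4.07%. The STAT element TTCCNGGAA, the site of the factor that LIF activates, was in no member, which allows up to 3 in 75 by counting error, and in 1.55% of other distal regions. For all 13 motifs the share in other distal regions lay within the Wilson interval of the clustered share.

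Among sites of more general factors, the AP-1 element TGANTCA was the most common, in 9 members from 8 clusters (12%) and in 14.7% of other distal regions. The CTCF core was in 5 members (6.67%) from 5 clusters and in 6.48% of other distal regions. The E-box CACGTG was in 4 (5.33%) and 4.47%, with 2 of the 4 in protocadherin exons. The GATA element AGATAAG was in 2 (2.67%) and 3.29%, the FOX element TGTTTAC in 1 (1.33%) and 4.67%, and the ETS element CCGGAAG in 1 (1.33%) and 2.91%. The NRF1 element was in 1 (1.33%) and 0.240%. A match is a description of letters and not a bound site. In 2 clusters no region held any of the 13 motifs.

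**Figure D5:**
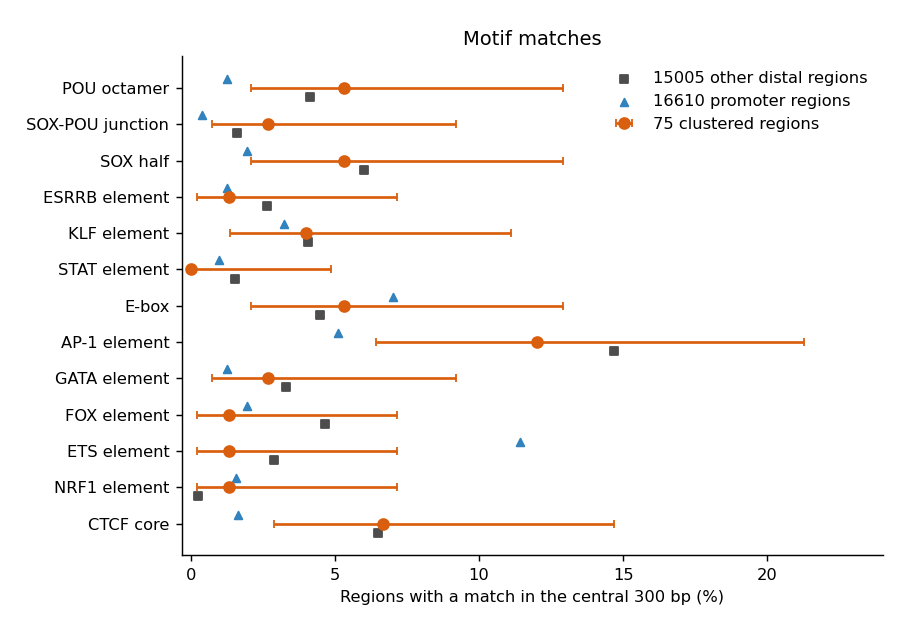
Percent of regions with at least 1 match to each motif in the central 300 bp, for 75 clustered regions (orange, with 95% Wilson intervals), 15005 other distal regions (grey squares) and 16610 promoter regions (blue triangles). All 13 grey squares lie inside the orange intervals, the NRF1 square (0.240%) at the edge of an interval that rests on 1 region.

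The named gene lists were then searched for a dense cluster that overlapped the gene or lay within 50 kb of a start. Of 20807 autosomal coding genes, 38 had one (0.183%). Of 40 autosomal genes of pluripotency and self-renewal, none did. The count was also 0 for 15 ectoderm and neural, 11 trophoblast, 12 differentiated tissue and 12 fibroblast genes and for 7 chromatin regulators targeted by hairpins in the study. Of 16 mesoderm and endoderm genes, 1 did, which was Gsc. With a background this low, counts of 0 or 1 in lists of 7 to 40 genes show nothing about the lists.

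Single distal regions were present at most listed genes. Of the 40 pluripotency genes, 35 had at least 1 distal region at the gene or within 50 kb of a start, with a median of 2, against 60.3% of all coding genes with a median of 1. The counts for the other lists were 12 of 15 ectoderm and neural, 13 of 16 mesoderm and endoderm, 9 of 11 trophoblast, 7 of 12 differentiated tissue and 8 of 12 fibroblast genes and 6 of 7 chromatin regulators. Pou5f1 and Fgf4 had 4 each, none of them stitched to another, and Nanog and Esrrb had 2 each. Sox2, Nr5a2, Tet1, Rif1 and Dppa4 had none. Stitched groups of 2 or more were found at 7 of the 40 genes, against 10.4% of all coding genes, namely Utf1 with 3 regions, and Id3, Mycn, Nodal, Otx2, Phc1 and Tet2 with 2. Outside this list, Sox1 had a group of 3. When 3 regions were enough, 161 clusters held 507 regions and 3 of the 112 listed autosomal genes had one. When gaps up to 25 kb were stitched, 164 clusters held 719 regions and 8 listed genes had one. The share of all coding genes was not computed for either setting. These counts therefore cannot be set against the 0.183% of the main rule.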

How the data were processed

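ATAC-seq peak positions were analysed in 4 libraries of E14 mouse ESCs. The authors deposited 1 peak list per library with chromosome, start and end and no score; the submitters' processing notes name bcl2fastq, Bowtie2, MACS2 and mm10, without thresholds. Per the study's methods, best alignments were kept, multi-mapped reads were placed at random, and only concordant pairs were used. Peaks overlapping by at least 1 bp were merged, and features were read from GRCm38 (soft-masked, as mm10), GENCODE vM21 and RefSeq. Words of 50 bases were counted on 21 chromosomes. All peaks ended within the reference chromosomes. Samples were grouped by the labels. Wilson intervals (95%) cover counting error only. Stitching was tested on simulated data. Tools were Python 3.11.15, numpy 2.4.6, pandas 2.3.3, scipy 1.17.1, numba 0.67.0 and matplotlib 3.10.9. Clusters were named by the coding gene holding most region centres, or else by the start nearest the middle. By the rule for sequences, 1 region of each of the 6 largest clusters would be shown if found in all 4 libraries, which gave 1; the others were chosen after their values were seen. Members and gene lists were chosen with earlier results of these data known. Alternatives changed gaps, counts, libraries, start sites, repeats, windows and gene distance.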

Additional observations from a re-analysis of the deposited data

Results flagged for a closer look

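Chromosome X was outside the rule, and its 328 distal regions gave 1 dense cluster of 5 regions. It was noted because it lay in data that the comparisons did not use. It spanned chrX:75733557-75759329 (25.8 kb), with Pls3, an actin-bundling protein gene, as nearest coding gene at 116 kb. The 5 regions were found as 5 in shGFP, 3 in shLuc replicate 1, 5 in shLuc replicate 2 and 4 in shLuc replicate 3, and 3 of them in all 4.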

How the results depend on the processing

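Of 204 recomputed values, 118 stayed within 1.5 times the main count or within the interval of the main value, and 86 moved; the cause was not tested except where fewer or more regions enter by construction. Main values were 17 clusters, 75 regions, 0.497% of distal regions, differences (clustered minus other) of 1.16 points for the held-out library, -3.28 points for presence in all libraries, 2.00 points for median GC, -19.8 points for introns and -1.30 points for repeats, 5 of 13 motifs with a higher share in clusters, and 1 listed gene. No cluster was left (0 clusters, 0 regions, 0% and 0 listed genes) with a gap of 5 kb, with presence in all 4 libraries, or with lists of equal length, so other values could not be computed there. A gap of 25 kb gave 164 clusters, 719 regions, 4.77%, -7.48 points for introns and 8 listed genes. At least 3 regions gave 161 clusters, 507 regions, 3.36%, -4.92 points for introns, 8 motifs and 3 listed genes. At least 6 regions gave 2 clusters, 13 regions, 0.0862%, 15.5 points for presence, 13 points for GC, -39.7 points for introns, 1.56 points for repeats, 1 motif and 0 listed genes. Presence in 1 library gave 140 clusters, 618 regions, 2.49%, -8.07 points for introns and 3 listed genes. Presence in 3 libraries gave 4 clusters, 17 regions, 0.190%, 7.70 points for the held-out library (1 library with clusters), 9.62 points for presence, 7.67 points for GC, -39.0 points for introns and 2 motifs. Starts 5 kb away gave 11 clusters and 47 regions, as did under 20% soft-masked. Coding starts only gave 32 clusters, 140 regions, 0.849%, 3 motifs and 2 listed genes. No soft-mask limit gave 37 clusters, 171 regions and 0.781%. A narrower window at the region centre gave 3 motifs, and genes within 10 kb gave 0 listed genes. The share of all coding genes with a cluster was not computed for any alternative, so counts of listed genes have no background there. Without each library in turn (shGFP, then shLuc replicates 1 to 3), values ran from 4 to 17 clusters, 18 to 74 regions, 0.178 to 0.506%, -10.2 to 7.86 points for the held-out library, -4.88 to 11.3 points for presence, 1.83 to 8.50 points for GC, -39.4 to -16.8 points for introns, -1.67 to 3.20 points for repeats and 2 to 6 motifs, with 1 listed gene each time. The held-out values here were means over only those held-out libraries for which clusters were left. These numbered 1 without shGFP and 3, 2 and 2 without shLuc replicates 1, 2 and 3. The low end for clusters and regions was without shGFP replicate 1 (4 and 18), followed by shLuc replicate 2 (6 and 26) and replicate 3 (11 and 49). The mean of single-library shLuc clusters ran from 7 to 26.5; with at least 3 regions it was 107 and shGFP gave 285, and with lists of equal length shGFP gave 1 and shLuc replicates 1 to 3 gave 2, 0 and 0. Of alternatives added after seeing the data, RefSeq starts also kept clear gave 13 clusters, 55 regions, 0.386%, 8 motifs and 0 listed genes, leaving out tRNA gene regions gave 16 clusters and 71 regions, and leaving out the 2 largest clusters gave 15 clusters and 62 regions. No paired analysis was possible because shGFP has 1 library. What limits all values is that lists of 17860 to 41943 peaks carry no depth or height.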
